A study of Homo sapiens with 16 samples.

Results

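Evodiamine is an alkaloid of the fruit of Evodia rutaecarpa, and its transcriptional effect was read here in NCI-H1688 cells, a human line deposited as small cell lung cancer. The comparison set 2 libraries of cells given 3 µM evodiamine for 24 h against 2 control libraries, which are 4 of the 16 libraries of the series. These libraries were chosen by their treatment labels alone. The sample labels call the control untreated, whereas the treatment protocol describes a DMSO control, so the control is called untreated here only as labelled. Sanguinarine at 1 µM and cepharanthine at 3 µM, both for 24 h and with 2 libraries each, were in the same deposited table and serve as further points of comparison. All groups were cultures of 1 cell line, and duplicates are labelled biological with no word on separate cultures, so p-values measure the spread between these libraries.

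Evodiamine is known as an agonist of the heat-sensing channel TRPV1 and has been described as an inhibitor of topoisomerases and as an agent that arrests cultured cells in G2/M. Progress through the cell cycle is driven by cyclins and their kinases. E2F factors switch on replication genes before S phase, and the DREAM and MuvB complexes act through CHR elements in the promoters of genes needed for mitosis. The p53 protein slows this cycle through CDKN1A, while the aryl hydrocarbon receptor (AhR) is a ligand-activated factor that induces the CYP1 enzymes.

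The libraries held 55695761 and 54656344 counted reads with evodiamine, and 43289277 and 53877601 in control. A gene without reads could be present at up to 0.0539 and 0.0549 CPM (counts scaled to library size) in the evodiamine libraries. In the control libraries the limits were 0.0693 and 0.0557 CPM. They take 3 counts as the floor, which covers counting error only. These floors use library totals alone, whereas the other CPM values carry a further scaling between libraries. Mitochondrial mRNAs took 4.03% and 4.1% of reads with evodiamine, against 3.777% and 3.851% in control. Epithelial markers were present, with the keratin KRT8 at 2039 and 2127 CPM with evodiamine, against 2199 and 2074 CPM in control. The neuroendocrine factor gene NEUROD1 and the peptide gene GRP had 0 reads in all 4 libraries. INSM1 had 1 read in 1 evodiamine library, so these markers of neuroendocrine small cell lung cancer were not detected above the floor. Other neuroendocrine markers were present, and 7 of 11 were tested. The markers summed to 133.9 and 142.2 CPM with evodiamine, against 175.2 and 176.7 CPM in control. ENO2 had 11.5 and 11.7 CPM with evodiamine, against 17.9 and 17.4 CPM in control. Summed fibroblast markers were at 21.8 and 20.5 CPM with evodiamine, against 19.4 and 19.8 CPM in control, nearly all of it COL1A1, and 2 of 4 tested rose from low counts. PDGFRA had 19 and 30 reads with evodiamine, against 0 and 0 in control. PDGFRB had 19 and 17 reads with evodiamine, against 0 and 5 in control, and its call was lost in 6 of 9 alternatives. Summed immune markers were at 18.8 and 17.9 CPM with evodiamine, against 17.02 and 15.04 CPM in control, with 1 of 3 tested higher, and summed endothelial markers at 16.8 and 17.4 CPM with evodiamine, against 20.3 and 19.8 CPM in control, with 0 of 3 tested passing. Their part in the results was not tested.

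Of 18756 genes tested, 5575 (29.7%) differed between evodiamine and control at an adjusted p under 0.05 in edgeR's quasi-likelihood test with Benjamini-Hochberg adjustment, 2712 of them higher (14.5%) and 2863 lower (15.3%). The median log2 change over all genes tested was 0.02. Changes over 2-fold were found in 640 genes that were higher (3.41%) and 283 that were lower (1.51%). A fit over all 16 libraries called 1179 genes higher and 1365 lower. Without control replicate 1, control replicate 2 or evodiamine replicate 2 the number of higher genes was 1635, 1699 or 1786. In bulk RNA, fewer cells of a kind and less RNA per cell cannot be told apart. The plot of gene lists gives an overview of the groups described below. Counts of list members against control stand beside the 14.5% higher and 15.3% lower over all genes tested.

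**Figure D1:**
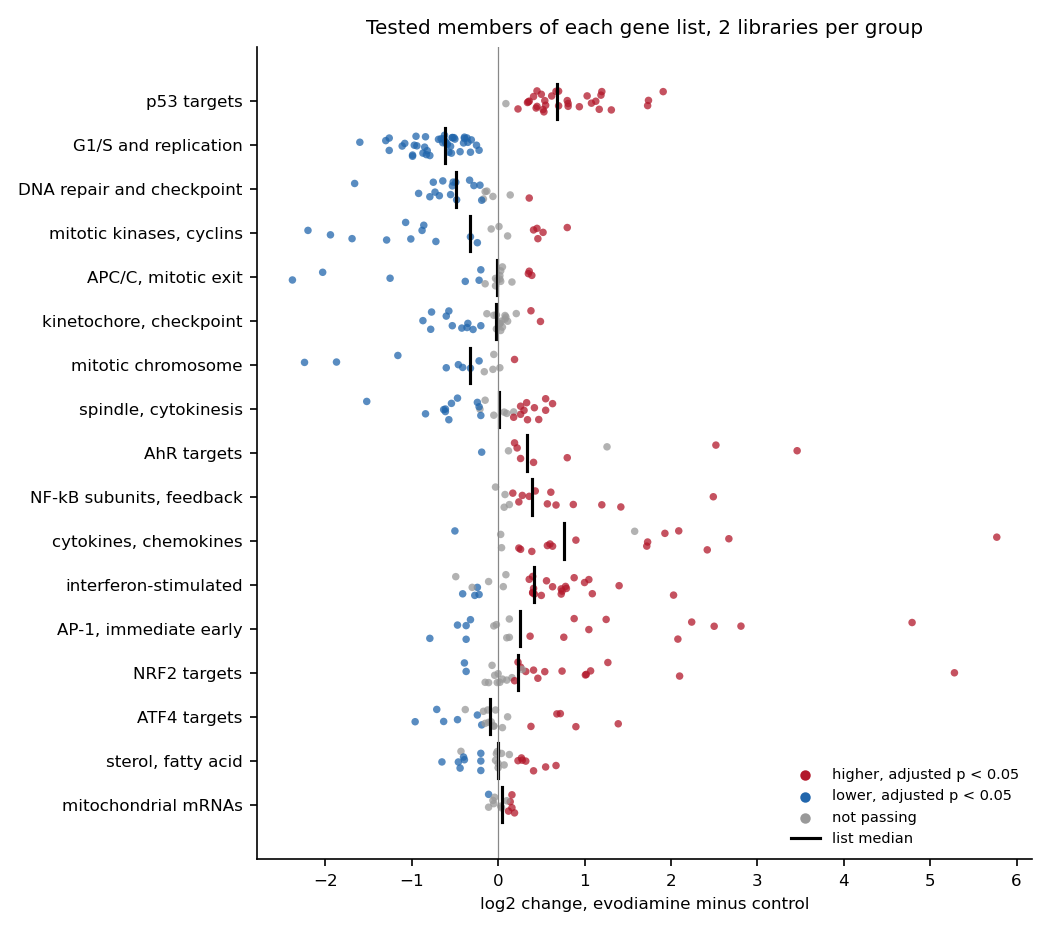
Log2 change, evodiamine minus control (horizontal axis), of each tested member of the gene lists (rows), with red for higher and blue for lower at an adjusted p under 0.05, grey for not passing and a black bar at the list median. All 43 G1/S and replication genes lie left of 0 and 31 of 32 p53 targets passed on the right, while the mitotic lists spread over both sides.

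Genes that act late in the cell cycle split under evodiamine: one set was several times lower while another was higher. UBE2C, the ubiquitin-conjugating enzyme that works with the anaphase-promoting complex, had 22.6 and 24.5 CPM with evodiamine, against 123.0 and 121.4 CPM in control. CDK1, the kinase that drives entry into mitosis, had 21.8 and 22.8 CPM with evodiamine, against 102.1 and 102.4 CPM in control. TOP2A, the topoisomerase that untangles chromosomes, had 86.2 and 91.6 CPM with evodiamine, against 409.7 and 430.0 CPM in control. In these 3 genes both evodiamine libraries lay far below both control libraries. Their log2 changes were -2.38 ± 0.07, -2.20 ± 0.07 and -2.24 ± 0.06 (approximate SE, n = 2 each; adjusted p = 9.85e-23, 4.9e-21 and 4.12e-23, edgeR quasi-likelihood test).

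By contrast CCNB1, the cyclin partner of CDK1, had 346.0 and 352.6 CPM with evodiamine, against 253.8 and 258.2 CPM in control. KIF20A, a kinesin of the spindle midzone, had 125.0 and 123.8 CPM with evodiamine, against 79.6 and 81.6 CPM in control. Both evodiamine libraries lay above both control libraries for these genes, with log2 changes of 0.45 ± 0.05 and 0.63 ± 0.06 (adjusted p = 6.16e-08 and 1.21e-09, edgeR quasi-likelihood test). CDC20, the activator of the anaphase-promoting complex at the spindle checkpoint, was also higher at 0.35 ± 0.05 (adjusted p = 4.11e-06, same test). PLK1, a mitotic kinase picked with its values known, had 285.2 and 290.4 CPM with evodiamine, against 289.3 and 280.8 CPM in control, so the groups overlapped.

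Over the 5 mitotic lists, 106 genes were tested, of which 22 were higher, 47 were lower and 37 did not pass. Their median was -0.07, against 0.02 over all genes tested, and 0 members were over 2-fold higher while 13 were over 2-fold lower. Over all genes tested 14.5% were higher and 15.3% lower. Fewer mitotic members were higher in the 16-library fit, with 4 kinases and cyclins, 2 genes of the anaphase-promoting complex list and 5 of the spindle list. The kinetochore and chromosome lists had 0 higher in that fit. Among 19 mitotic kinases and cyclins, 5 rose and 11 fell (4 and 9 in the 16-library fit). Besides CDK1, the cyclin F gene CCNF changed by -1.94 ± 0.07 and the CDK subunit gene CKS1B by -1.69 ± 0.07, whereas its paralog CKS2 changed by 0.80 ± 0.07. The Aurora kinases parted, with AURKB at -1.29 ± 0.07 and AURKA at 0.52 ± 0.06. CCNA2, the cyclin of S and G2 phases, was at 0.11 ± 0.06 and the regulator FOXM1, picked with its values known, at -0.08 ± 0.05, and neither passed.

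Of 19 genes of the anaphase-promoting complex and mitotic exit, 3 rose and 6 fell (3 lower in the 16-library fit), against 14.5% higher and 15.3% lower over all genes, so the count that rose is near the background. FBXO5, an inhibitor of the complex also called EMI1, changed by -2.03 ± 0.09 and its co-activator gene FZR1 by -1.25 ± 0.07. Of 27 kinetochore and checkpoint genes, 2 rose (0 in the 16-library fit) and 11 fell, and none passed 2-fold. The checkpoint gene BUB3 changed by -0.77 ± 0.06, while BUB1, MAD2L1 and TTK, picked with their values known, were at 0.08, 0.09 and 0.11 and did not pass. Of 13 mitotic chromosome genes 1 rose, a call lost in the 16-library fit and without 3 of the 4 libraries in turn, and 8 fell, including INCENP at -1.87 ± 0.06 and the condensin gene NCAPH at -1.16 ± 0.07. The spindle and cytokinesis genes were even, with 11 of 28 higher (5 in the 16-library fit) and 11 lower. The ranked plot of mitotic genes shows this spread.

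**Figure D2:**
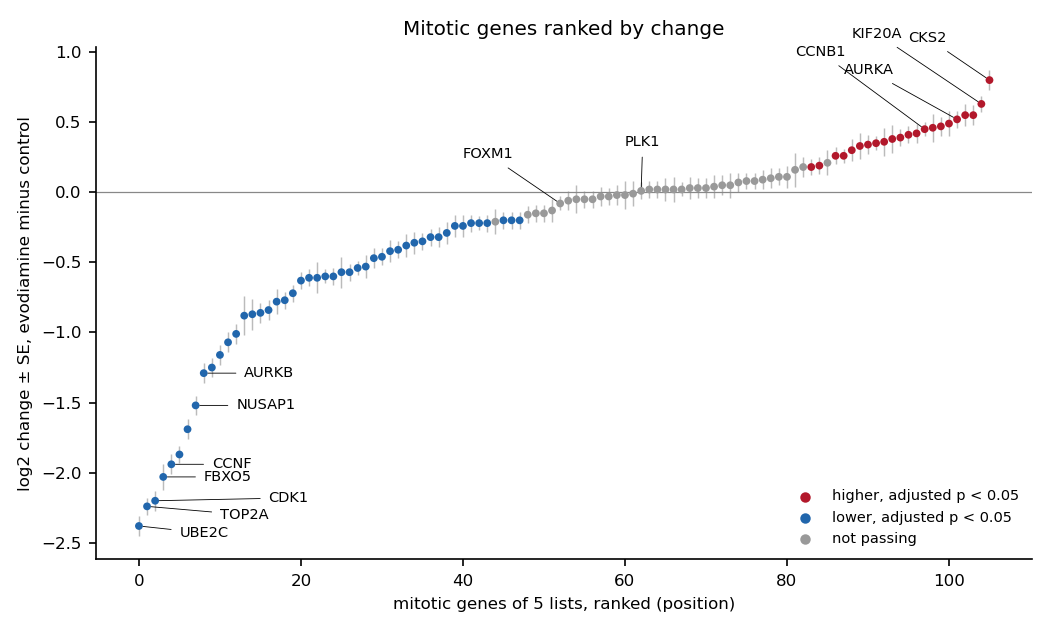
Log2 change ± approximate SE, evodiamine minus control (vertical axis), of 106 mitotic genes ranked along the horizontal axis, with red for higher, blue for lower and grey for not passing at an adjusted p of 0.05. UBE2C, TOP2A and CDK1 lie below -2 while CKS2 reaches 0.80, and PLK1 and FOXM1 lie near 0.

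Promoters of mitotic genes that fell and that rose are shown because the direction of change differed within the mitotic lists. The 300 bases run from 250 before to 50 after the annotated start (RefSeq, GRCh38.p14). Capitals mark the CHR letters TTTGAA and the box CCAAT, each also read on the other strand as TTCAAA and ATTGG; the 2 motifs share no bases. CDK1 (chr10:60778081-60778380, plus strand) and TOP2A (chr17:40417847-40418146, minus strand) fell, and CCNB1 (chr5:69166900-69167199, plus strand) and CDC20 (chr1:43358731-43359030, plus strand) rose.
CDK1: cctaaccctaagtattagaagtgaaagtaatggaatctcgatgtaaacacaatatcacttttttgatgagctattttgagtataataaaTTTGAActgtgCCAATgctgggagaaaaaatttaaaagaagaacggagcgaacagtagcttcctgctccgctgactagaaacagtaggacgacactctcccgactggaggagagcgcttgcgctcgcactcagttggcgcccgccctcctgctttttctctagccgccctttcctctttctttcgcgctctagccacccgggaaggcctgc
TOP2A: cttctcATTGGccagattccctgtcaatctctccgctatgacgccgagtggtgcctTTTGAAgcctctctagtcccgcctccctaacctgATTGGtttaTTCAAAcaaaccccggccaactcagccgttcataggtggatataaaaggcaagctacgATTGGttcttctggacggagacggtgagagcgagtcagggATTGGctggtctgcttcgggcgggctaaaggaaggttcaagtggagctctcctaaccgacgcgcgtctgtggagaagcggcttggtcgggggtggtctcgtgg
CCNB1: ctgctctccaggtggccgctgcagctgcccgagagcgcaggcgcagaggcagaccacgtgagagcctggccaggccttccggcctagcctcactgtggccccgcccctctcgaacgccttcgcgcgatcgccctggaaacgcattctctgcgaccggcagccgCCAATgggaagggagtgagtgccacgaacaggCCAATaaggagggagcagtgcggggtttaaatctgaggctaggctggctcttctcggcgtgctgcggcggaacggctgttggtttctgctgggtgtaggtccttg
CDC20: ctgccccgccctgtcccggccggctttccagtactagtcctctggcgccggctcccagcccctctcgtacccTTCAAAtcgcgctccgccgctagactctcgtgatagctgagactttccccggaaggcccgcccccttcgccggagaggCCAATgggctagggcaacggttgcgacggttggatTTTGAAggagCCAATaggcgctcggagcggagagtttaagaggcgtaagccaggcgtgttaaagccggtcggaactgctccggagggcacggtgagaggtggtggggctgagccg

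The CHR letters occurred in 7 of 10 promoters of members over 2-fold lower (70.0%) and in 11 of 18 of members that were higher (61.1%), against 35 of 63 of the other mitotic members (55.6%) and 15.4% of all 27305 RefSeq promoters. CCAAT occurred in 8 of 10 (80.0%) and 15 of 18 (83.3%), against 37 of 63 of the other mitotic members (58.7%) and 35.7% of all promoters. Promoters were found for 10 of the 13 lower and 18 of the 22 higher members. The printed CDK1 window held 1 CHR run and 1 CCAAT box, and CCNB1 held 2 CCAAT boxes without the letters TTTGAA. CDC20, which also rose, held 2 CHR runs and 2 CCAAT boxes. A match is a description of these letters and not a site of binding. Only the letters TTTGAA, on either strand, were searched for the CHR, so other forms of it were not counted. Each gene was given 1 annotated start, so motifs outside its window or near other starts were not counted.

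Genes of G1/S and DNA replication were lower without exception among the members tested. All 43 fell (37 in the 16-library fit), with a median of -0.62, against 0.02 over all genes tested, and 6 were over 2-fold lower. E2F2, a factor that switches on replication genes, had 4.22 and 3.45 CPM with evodiamine, against 11.66 and 11.65 CPM in control. UNG, which removes uracil from DNA, had 57.5 and 57.5 CPM with evodiamine, against 137.5 and 139.0 CPM in control. Both groups were apart in each gene, with log2 changes of -1.60 ± 0.14 and -1.26 ± 0.06 (adjusted p = 6.62e-11 and 3.71e-17, edgeR quasi-likelihood test). The cyclin gene CCNE2 changed by -1.26 ± 0.10 and the repressor gene E2F8 by -1.30 ± 0.09.

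DNA repair and checkpoint genes moved the same way, with 16 of 22 lower (11 in the 16-library fit), 1 higher and a median of -0.49. BARD1, the partner of BRCA1, had 10.0 and 8.87 CPM with evodiamine, against 28.8 and 30.6 CPM in control, a change of -1.66 ± 0.11 (adjusted p = 7.95e-14, edgeR quasi-likelihood test). The helicase gene BLM changed by -0.92 ± 0.10. The 1 member that rose was TDP2, which removes trapped topoisomerase II from DNA, at 0.36, and this call was lost in the 16-library fit and without control replicate 1. Among 6 topoisomerase genes TOP2A fell most, whereas TOP1 was at 0.25 ± 0.05 and TOP2B at -0.19 ± 0.06, calls that were lost in the 16-library fit (adjusted p = 0.107 and 0.341, edgeR quasi-likelihood test), and for TOP2B also without any 1 of the 4 libraries.

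Targets of p53 were higher almost throughout. Of 32 tested, 31 rose (29 in the 16-library fit) and none fell, with a median of 0.69, against 0.02 over all genes tested, and 10 were over 2-fold higher. TP53INP1, a p53-induced stress gene, had 29.97 and 30.65 CPM with evodiamine, against 7.30 and 8.79 CPM in control. BBC3, which encodes the death protein PUMA, had 17.1 and 19.9 CPM with evodiamine, against 6.27 and 4.89 CPM in control. The cell cycle inhibitor CDKN1A had 545.8 and 574.8 CPM with evodiamine, against 254.1 and 258.8 CPM in control. No control library reached an evodiamine library in these genes, and the log2 changes were 1.91 ± 0.10, 1.74 ± 0.13 and 1.13 ± 0.05 (adjusted p = 3.93e-16, 6.38e-12 and 2.74e-17, edgeR quasi-likelihood test). The secreted factor GDF15 changed by 1.73 ± 0.07 and MDM2, the ligase that degrades p53, by 1.2 ± 0.06. PLK3, picked with its values known, alone did not pass, at 0.09. TP63, a relative of p53, was at -0.07 ± 0.06 and did not pass, while TP73 fell by 0.83 on the log2 scale.

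**Figure D3:**
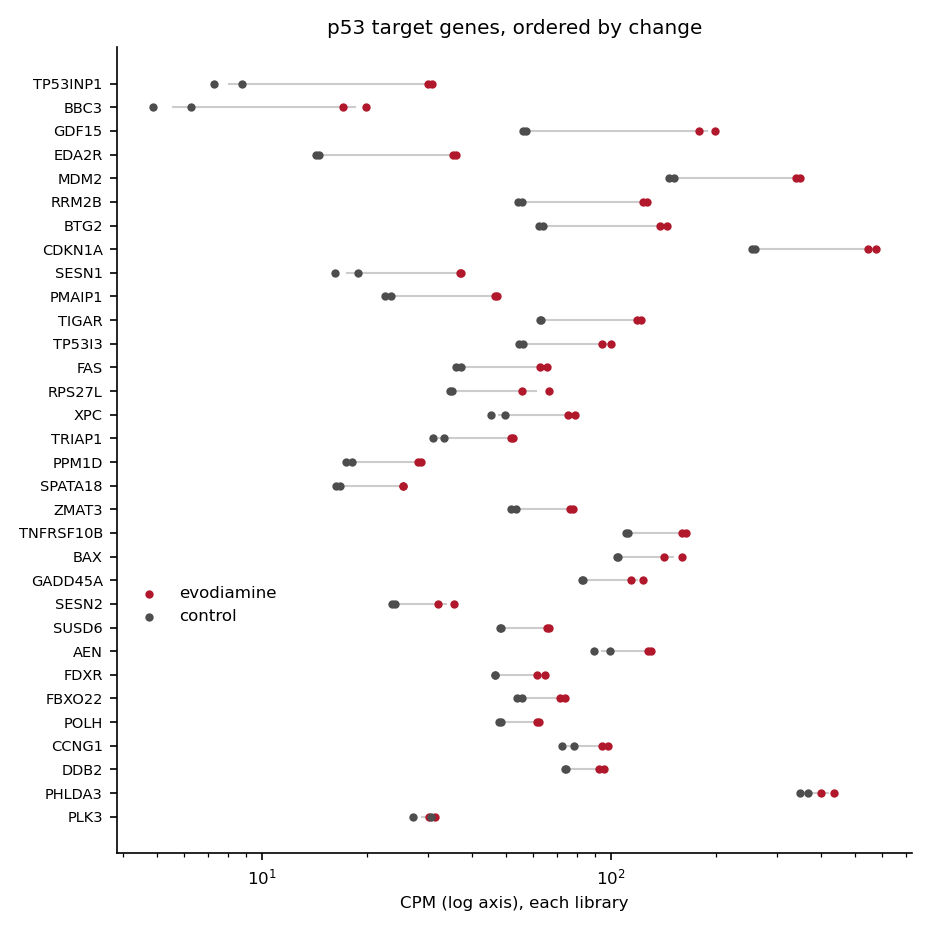
CPM on a log axis (horizontal) of 32 p53 target genes (rows, ordered by change) in each of 2 evodiamine libraries (red) and 2 control libraries (grey), with lines joining the group means. Both evodiamine libraries lie above both control libraries except in PLK3.

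Other regulators of the cycle and of cell death changed unevenly, and their counts stand beside the same 14.5% and 15.3% over all genes. Of 14 CDK inhibitor, RB and G1 cyclin genes, 3 rose and 8 fell (5 in the 16-library fit). RBL1, an RB relative, had 24.0 and 25.6 CPM with evodiamine, against 60.9 and 64.6 CPM in control, a change of -1.34 ± 0.08 (adjusted p = 6.74e-15, edgeR quasi-likelihood test). RB1 at 0.08 and CDKN1B at -0.12 did not pass. Of 19 BCL2 family and death receptor genes, 8 rose and 3 fell (1 in the 16-library fit and without control replicate 2). The death gene BMF had 127 and 82 reads with evodiamine, against 15 and 15 in control, and the survival gene MCL1 changed by -0.39 ± 0.05.

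The most abundant tubulin mRNAs were lower with evodiamine, while the others were divided between lower and not passing. Tubulins build microtubules as pairs of an alpha and a beta chain, and cells are known to degrade tubulin mRNAs when free tubulin rises, a control that reads the first residues of the chain as it is made. On the RPKM scale, which is per length of the gene model, TUBB had 193.2 and 192.3 with evodiamine, against 547.6 and 544.9 in control. TUBB4B had 369.3 and 379.0 RPKM with evodiamine, against 650.9 and 625.8 RPKM in control. TUBA1C had 83.9 and 83.0 RPKM with evodiamine, against 221.1 and 219.3 RPKM in control. Both groups were apart in all 3, and the log2 changes were -1.54 ± 0.04, -0.81 ± 0.05 and -1.44 ± 0.05 (adjusted p = 1.09e-22, 2.38e-14 and 2.84e-20, edgeR quasi-likelihood test). TUBA1B, the alpha tubulin with the highest level in control, changed by -0.59 ± 0.05.

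Among 7 alpha tubulins tested 4 fell and 0 rose, and among 8 beta tubulins 3 fell and 0 rose. The largest falls of alpha tubulins were in TUBA3E at -2.63 (-3.0 to -2.35 over 9 alternatives) and TUBA3D at -1.71 (-1.94 to -1.52). The TUBA3E call was lost in 2 of the 9 alternatives. TUBB6 had 60.7 and 61.9 RPKM with evodiamine, against 59.7 and 54.99 RPKM in control, and TUBA4A had 110.0 and 110.8 RPKM with evodiamine, against 113.5 and 111.8 RPKM in control. Neither passed, with 95% intervals of the log2 change from -0.06 to 0.17 for TUBB6 and from -0.17 to 0.03 for TUBA4A. TUBB3 was at -0.19 and its call was lost in 6 of 9 alternatives. Tubulin genes are close copies of each other, so the division of reads among them is uncertain.

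**Figure D4:**
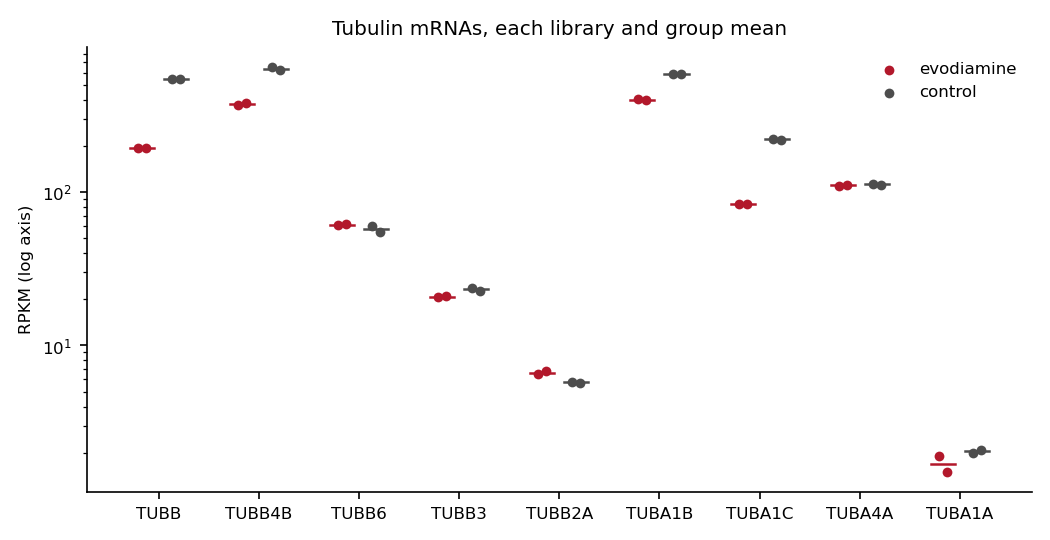
RPKM on a log axis (vertical) of 9 tubulin genes (horizontal) in each of 2 evodiamine libraries (red, left) and 2 control libraries (grey, right), with bars at the group means. TUBB, TUBB4B, TUBA1B and TUBA1C are lower with evodiamine, while TUBB6 and TUBA4A lie level.

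The start of the coding sequence is shown for tubulins that fell and that did not pass, since the known control of tubulin mRNA reads the first residues. Each line gives 24 bases from the start codon (GENCODE 44 transcripts, GRCh38), with the first 4 codons in capitals.
TUBB: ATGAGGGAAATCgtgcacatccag
TUBB4B: ATGAGGGAAATCgtgcacttgcag
TUBB6: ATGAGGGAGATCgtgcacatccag
TUBA1B: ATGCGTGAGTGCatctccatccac
TUBA1C: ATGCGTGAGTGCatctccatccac
TUBA4A: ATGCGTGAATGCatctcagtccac

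TUBB and TUBB4B, which fell, were equal over the 12 capital bases, and TUBB6, which did not pass, was equal to TUBB at 11 of them. TUBA1B and TUBA1C were equal at 12 and TUBA4A matched TUBA1B at 11. These counts compare bases, and the codons that differ are GAA and GAG, which encode the same residue. TUBB, TUBB4B and TUBB6 therefore start with the same 4 residues, as do TUBA1B, TUBA1C and TUBA4A among themselves. Of 19 genes that fold tubulin or regulate microtubules, 5 rose and 3 fell, against 14.5% higher and 15.3% lower over all genes tested. The count that fell is near that share. In the 16-library fit 1 rose and 0 fell, and without control replicate 1 0 rose.

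Both CYP1 enzymes tested, which AhR induces, were more than 2-fold higher, and the other AhR targets changed less or did not pass. CYP1A1, which oxidises aromatic compounds, had 21.3 and 22.9 CPM with evodiamine, against 2.56 and 1.52 CPM in control. CYP1B1, a related enzyme, had 15.9 and 14.6 CPM with evodiamine, against 2.18 and 3.08 CPM in control. Each evodiamine library was above each control library, with log2 changes of 3.46 ± 0.17 and 2.52 ± 0.16 (adjusted p = 1.25e-16 and 4.94e-14, edgeR quasi-likelihood test). Of 10 AhR targets tested 7 rose (4 in the 16-library fit) and 1 fell (0 in the 16-library fit), with a median of 0.34. ALDH3A1, an aldehyde dehydrogenase, changed by 0.80 ± 0.14. AHRR, the repressor of the receptor, was at 0.22 and its call was lost in 7 of 9 alternatives, and TIPARP at 0.12 did not pass. AHR itself changed by 0.29 ± 0.07, a call lost without control replicate 1.

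The CYP1A1 promoter is shown because this gene had the largest change of the AhR targets (chr15:74725479-74725778, minus strand, RefSeq, GRCh38.p14). Capitals mark the core letters GCGTG of the xenobiotic response element, also read as CACGC on the other strand.
CYP1A1: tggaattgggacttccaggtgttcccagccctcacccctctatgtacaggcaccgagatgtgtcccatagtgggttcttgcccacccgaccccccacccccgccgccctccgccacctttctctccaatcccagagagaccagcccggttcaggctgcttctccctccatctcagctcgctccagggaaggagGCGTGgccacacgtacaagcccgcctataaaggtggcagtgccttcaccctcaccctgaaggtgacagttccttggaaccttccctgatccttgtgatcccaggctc

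The core occurred once in this window, from 57 to 53 bases before the start. It was found in 4 of 5 promoters of AhR targets that rose (80.0%), against 36.3% of all promoters. The mitotic promoters held it at 60.0% of the 10 over 2-fold lower, 66.7% of the 18 higher and 55.6% of the 63 others. Promoters were found for 5 of the 7 AhR targets that rose.

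Most of the NF-kB and cytokine genes tested rose, while immediate early genes were divided. Of 16 NF-kB subunits and feedback genes 12 rose (9 in the 16-library fit) and 0 fell, with a median of 0.39. TRAF1, an adaptor of TNF receptors, had 20.1 and 21.6 CPM with evodiamine, against 3.16 and 4.17 CPM in control, a change of 2.49 ± 0.13 (adjusted p = 5.31e-16, edgeR quasi-likelihood test). Of 18 cytokines and chemokines tested 14 rose (11 in the 16-library fit) and 1 fell, with a median of 0.76. IL6 had 20.4 and 20.9 CPM with evodiamine, against 4.19 and 5.43 CPM in control. CXCL8, which attracts neutrophils, had 79.3 and 85.2 CPM with evodiamine, against 24.2 and 25.2 CPM in control. Both groups were apart in each, with log2 changes of 2.09 ± 0.12 and 1.73 ± 0.08 (adjusted p = 8.16e-15 and 1.29e-17, edgeR quasi-likelihood test). CCL5 had 81 and 60 reads with evodiamine, against 0 and 2 in control, and IL11 fell by 0.50 on the log2 scale.

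Of 29 interferon-stimulated genes 20 rose and 4 fell, counts that were 13 and 1 in the 16-library fit, and 2 fell when any 1 library was left out. Over all genes tested 14.5% were higher and 15.3% lower, so the count of interferon-stimulated genes that fell is near that share. IFI6 changed by 1.09 ± 0.16, and MX2, an antiviral GTPase, by 1.4 ± 0.31. Of 20 AP-1 and immediate early genes 10 rose and 5 fell (3 in the 16-library fit), among them KLF2 at -0.79 and DUSP1 at -0.47. The KLF2 call was lost without evodiamine replicate 1. EGR3 had 20 and 19 reads with evodiamine, against 0 and 1 in control. FOSB had 13.6 and 14.9 CPM with evodiamine, against 2.06 and 2.02 CPM in control, and ATF3 had 26.6 and 29.0 CPM with evodiamine, against 5.00 and 4.86 CPM in control. Both were apart between groups, at 2.81 ± 0.16 and 2.50 ± 0.11 (adjusted p = 6.22e-15 and 7.58e-18, edgeR quasi-likelihood test).

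Stress and metabolic lists moved less uniformly; their counts stand beside 14.5% higher and 15.3% lower over all genes tested. Of 27 NRF2 targets 14 rose and 2 fell (11 and 1 in the 16-library fit), with a median of 0.23. The haem-degrading enzyme HMOX1 had 6.61 and 7.45 CPM with evodiamine, against 1.48 and 1.75 CPM in control. The reductase gene AKR1B10 had 52 and 50 reads with evodiamine, against 2 and 0 in control, and AKR1C3, one of a family of close copies, changed by 1.27 ± 0.20. Of 22 ATF4 targets 5 rose and 6 fell, with NUPR1 at 1.39 ± 0.12 and the serine synthesis gene PSAT1 at -0.96 ± 0.07. Of 16 YAP and SRF targets 8 fell (4 in the 16-library fit) and 0 rose, led by ANKRD1 at -1.17 ± 0.08. Of 24 sterol and fatty acid genes 7 rose and 8 fell (2 and 5 in the 16-library fit, and 4 higher without control replicate 1), with IDI1 of the sterol path at 0.67 ± 0.07 and FASN, the fatty acid synthase, at -0.65 ± 0.05. MYC changed by -0.58 ± 0.05, while 10 of 26 ribosome biogenesis genes fell (4 in the 16-library fit and 6 without control replicate 1). Of 16 heat shock genes 6 rose (2 in the 16-library fit) and 3 fell, with HSPA1A, which has a near-identical copy in HSPA1B, at -1.05 ± 0.07. Of 13 mitochondrial mRNAs 5 rose and 1 fell, none by more than 0.19, and 0 passed in the 16-library fit or without control replicate 1. TRPV1 was at 0.02 ± 0.16 and did not pass.

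Beyond the lists, the largest rises included genes with little or no expression in control. RRAD, a small GTPase, had 27.2 and 28.3 CPM with evodiamine, against 2.66 and 2.32 CPM in control, a change of 3.49 ± 0.13 (adjusted p = 4.28e-20, edgeR quasi-likelihood test). CCNA1, the germline cyclin A, had 123 and 111 reads with evodiamine, against 3 and 3 in control. SNAI1, a repressor of epithelial genes, changed by 3.11 ± 0.45, and by 2.46 or 4.62 without control replicate 1 or control replicate 2. Among the genes that fell, SLC29A1, a nucleoside transporter, had 21.2 and 20.9 CPM with evodiamine, against 80.9 and 82.6 CPM in control. CYP19A1, the aromatase, had 16 and 22 reads with evodiamine, against 100 and 100 in control, a change of -2.62 ± 0.30 (adjusted p = 3.45e-08, same test). MTFR2, a mitochondrial fission regulator, changed by -2.14 ± 0.13 and FAM83D, a spindle protein gene, by -1.71 ± 0.06.

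Further genes with large rises had low levels in control. UNC13A, which primes synaptic vesicles, had 142 and 125 reads with evodiamine, against 10 and 7 in control. VGF, a secreted neuropeptide precursor, had 11.1 and 11.8 CPM with evodiamine, against 1.25 and 1.83 CPM in control, a change of 2.88 ± 0.18. RND1, a small GTPase, had 7.09 and 6.30 CPM with evodiamine, against 0.958 and 0.552 CPM in control. Both evodiamine libraries lay above both control libraries in each. The other large rises were in PYGM (muscle glycogen phosphorylase), ITGAM (an integrin chain), HIC1, POU3F1, SERPINB4, GAL3ST4 and TNXB, with log2 changes from 2.73 to 3.23 and 101 to 222 reads with evodiamine, against 9 to 30 reads in control. SERPINB4 and TNXB have close copies, so the division of their reads is uncertain. Among genes that fell, RP1L1 changed by -2.20 ± 0.16 and LRFN1 by -1.77 ± 0.12. Of 7 epithelial markers 3 fell (1 in the 16-library fit, without evodiamine replicate 1 or without control replicate 1) and 0 rose, with the adhesion gene CDH1 at -0.42. Of 7 neuroendocrine markers tested 2 fell, 0 rose (1 in the 16-library fit) and 5 did not pass, with a median of 0.45. The members that fell were the ubiquitin hydrolase gene UCHL1 at -0.34 ± 0.06 and the enolase gene ENO2 at -0.61 ± 0.09.

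Evodiamine was also set directly against the other alkaloids of the table, in contrasts of treated groups whose spread was estimated over all 8 libraries. It differed from sanguinarine in 7750 genes (41.3%; 19.6% higher and 21.7% lower) and from cepharanthine in 6268 (33.4%; 15.1% higher and 18.3% lower), at doses of 3 µM evodiamine, 1 µM sanguinarine and 3 µM cepharanthine. The fit over all 16 libraries called 4563 and 3131, and fits of only the 2 groups compared called 8436 and 5437. UBE2C was lower with evodiamine than with sanguinarine by a log2 change of -1.76 ± 0.07 and than with cepharanthine by -2.17 ± 0.07. TUBB was at -0.71 ± 0.04 against sanguinarine and -1.38 ± 0.04 against cepharanthine. CYP1A1 was higher by 2.33 ± 0.15 and 2.87 ± 0.16 and KIF20A by 1.46 ± 0.06 and 0.98 ± 0.06. All 8 differences passed (edgeR quasi-likelihood test with Benjamini-Hochberg adjustment, largest adjusted p = 7.79e-14).

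The p53 targets were higher with evodiamine than with cepharanthine in 30 of 32 and than with sanguinarine in 22 of 32. CDKN1A did not pass against sanguinarine, at -0.09 ± 0.05 (adjusted p = 0.168), and GDF15 was lower than with sanguinarine by -0.67 ± 0.07. The G1/S genes were lower than with cepharanthine in 40 of 43, but against sanguinarine 13 were higher and 9 lower. Over all genes tested 19.6% were higher and 21.7% lower than with sanguinarine, so the count of G1/S genes that were lower is near that share. Spindle and cytokinesis genes were higher than with sanguinarine in 25 of 28. All 24 sterol and fatty acid genes were lower than with cepharanthine, and all 13 mitochondrial mRNAs were higher than with sanguinarine. Against control, 7 of the 24 sterol and fatty acid genes rose with evodiamine and 8 fell. The mitochondrial mRNAs summed to 39960 and 41510 CPM with evodiamine and 39150 and 39500 CPM in control, against 8640 and 9335 CPM with sanguinarine. The plot of 12 genes in the 4 groups gives levels of single genes.

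**Figure D5:**
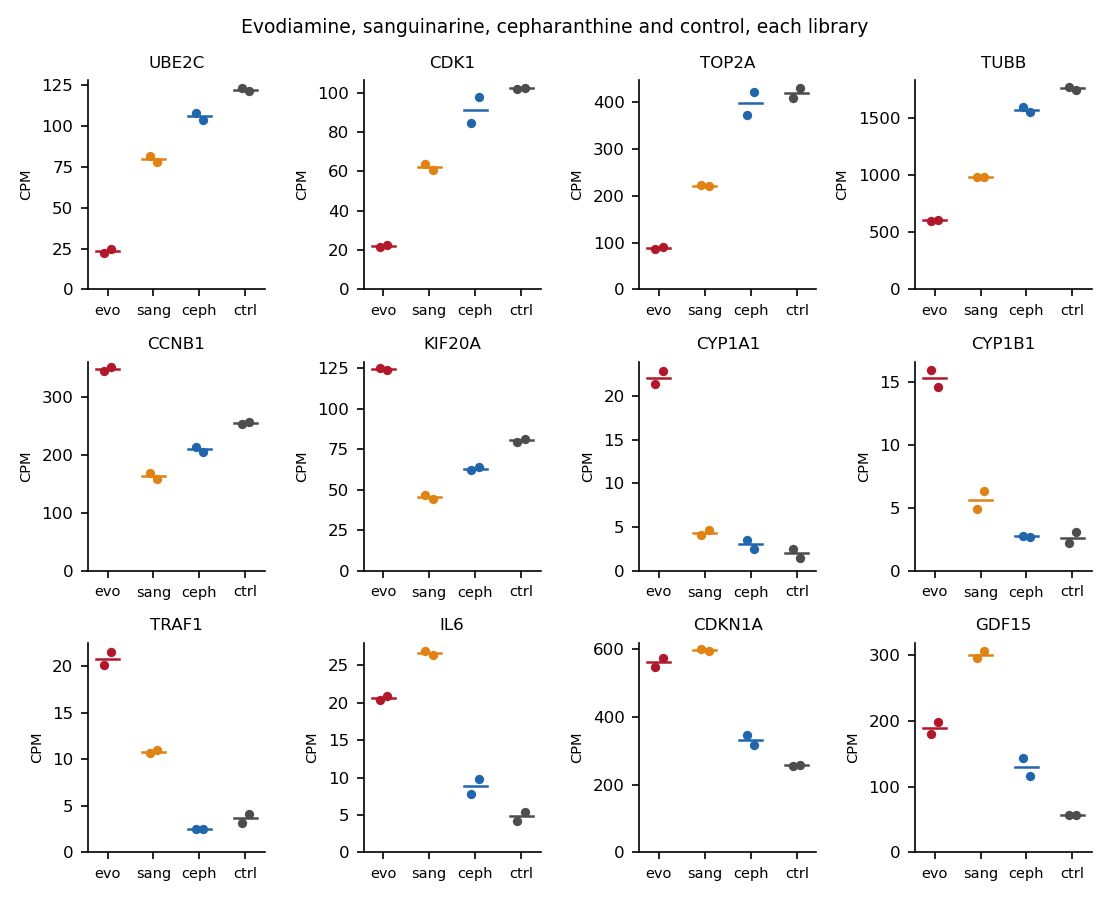
CPM (vertical axes, from 0) of 12 genes, 1 per panel, in each of 2 libraries of evodiamine (evo), sanguinarine (sang), cepharanthine (ceph) and control (ctrl), with bars at the group means. UBE2C, CDK1, TOP2A and TUBB are lowest with evodiamine, while CCNB1, KIF20A, CYP1A1, CYP1B1 and TRAF1 are highest with it, and IL6, CDKN1A and GDF15 are highest with sanguinarine.

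Histone genes of the replication-dependent clusters were taken by symbol. The mRNAs of this class lack a poly(A) tail and are read poorly from poly(A) RNA. Whether each member lacks a tail was not checked. Of 54 tested 7 rose and 14 fell, with the number that fell ranging from 7 without control replicate 1 to 25 without control replicate 2. Over all genes tested 14.5% were higher and 15.3% lower, so the count of histone genes that rose is near that share. HIST1H4C had 0.908 and 0.852 CPM with evodiamine, against 5.29 and 4.28 CPM in control. The histone mRNAs HIST1H2BD and HIST2H2BE went the other way, at 1.44 ± 0.14 and 1.68 ± 0.17. Summed over all 70 histone genes taken by symbol, CPM were 130.0 and 133.5 with evodiamine, against 132.6 and 103.7 in control, so the groups overlapped. Other RNAs without a tail were not uniform. Small nucleolar RNAs and RMRP were lower than in control, while the 2 RNA genes tested of the signal recognition particle rose, with a median of 0.45. Summed over 431 small nucleolar RNA genes, CPM were 82.2 and 87.7 with evodiamine, against 161.3 and 146.8 in control, and RMRP, the RNA of a processing enzyme, picked with its values known, had 2.72 and 6.93 CPM with evodiamine, against 97.1 and 39.2 CPM in control. RMRP was at most 9.60 CPM in the sanguinarine and cepharanthine libraries too. The small nucleolar RNA sums were 87.9 and 100.9 CPM with sanguinarine and 115.4 and 123.0 CPM with cepharanthine, so the control libraries stood above every library of the 3 treated groups. The part of this difference in the values of single histone genes was not tested.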

How the data were processed

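Per the labels' protocols, poly(A) RNA was purified, fragmented and reverse transcribed with random primers, and libraries were sequenced after size selection. The series design names STAR 2.5.1 as the authors' aligner, GRCh38 as the genome and DESeq2 as the test, and gives GENCODE vM21 (in form a mouse release) as the annotation. The counting tool and its strand setting are not given in the sources used here. The authors deposited whole-number counts per gene, and the deposited RPKM values are those counts per length of the gene model and library total (largest relative difference 5.1e-15). For 27 genes a symbol had been turned into a date and was put back.

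The 8 libraries of the table with evodiamine, sanguinarine, cepharanthine and control were fitted with edgeR 4.0.16 (R 4.3.3), TMM scaling, the filterByExpr filter and the quasi-likelihood test, with Benjamini-Hochberg adjustment over all 18756 genes tested. A gene was called at an adjusted p under 0.05. SE were derived from the log2 change and its F statistic and are approximate. CPM are TMM-scaled. The procedure was tested on simulated counts. The other 8 libraries were left out of the main fit because their table holds no library of this comparison. Duplicates of sanguinarine with panobinostat also differed far more (chi-square per degree of freedom 83.81, against 7.03 for evodiamine and 5.63 for control). The remaining pairs left out had 5.05 (JQ1), 14.5 (panobinostat) and 27.18 (sanguinarine with JQ1). Of the pairs kept, cepharanthine had 12.32 and sanguinarine 4.92. The choice to leave libraries out was made with the call counts of both fits known. The fit over all 16 libraries called 2544 genes, against 5575.

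The gene lists and members were chosen with earlier results of these data known. Genes named were the 15 with the largest change in each direction among protein-coding genes at a mean of at least 1 CPM whose groups did not overlap, up to 4 per list and direction, and all tubulins, topoisomerases, p53 family, AhR and TRP members; a few others were chosen with values known, as stated beside them. Alternatives were DESeq2 size factors, the DESeq2 1.42.0 Wald test, no low-count filter, the compared groups alone, all 16 libraries, and leaving out each library. Not every gene the rule selects is named in the text, and some values are not reported here.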

Additional observations from a re-analysis of the deposited data

How the results depend on the processing

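The fit over all 16 libraries called 1179 genes higher and 1365 lower with evodiamine than in control, 4563 against sanguinarine and 3131 against cepharanthine, and 47 of 233 named genes lost their call in it. Leaving out 1 library gave 1635 to 2036 higher genes, against 2712. Counts over 2-fold stayed within 1.5 times of 640 and 283 in every alternative run. The share of calls that were higher was 48.6%, and 42.1% to 47.6% in the alternatives. Among named genes, changes of sign occurred only in genes that did not pass. With 16 libraries PLK1 was at -0.001. Leaving out 1 library at a time gave ranges of -0.02 to 0.03 for PLK1, -0.004 to 0.17 for PLK3, -0.09 to 0.14 for TRPV1, -0.12 to 1.39 for TRPV2, -0.93 to 0.14 for TUBA8, -0.34 to 1.86 for TUBB4A, -0.03 to 0.11 for TUBB6, -0.48 to 0.68 for TUBB8 and -0.15 to 0.11 for TUBG2. The cause was not tested. No paired analysis was possible because the labels of these libraries carry no shared replicate numbers. With 2 libraries per group, the spread rests on the model's pooling over groups, and a library left alone in its group is assumed to vary like the others.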

Other observations

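CD79A, a B cell gene, had 40 and 12 reads with evodiamine, against 1 and 3 in control, and its call was lost without evodiamine replicate 1 and without control replicate 1. By length of the gene model, 10.9% of the shortest of 5 equal bins of protein-coding genes tested were called lower and 26.1% of the longest, while called higher were 16.8% and 16.2%. By gene span, which includes introns, the shares called lower were 15.8% and 20.7%. Falls over 2-fold went the other way, with 1.46% of the shortest bin and 0.75% of the longest by length of the gene model. By gene span this share was also smaller in the longest bin, at 0.572%, than in the shortest. The median log2 change was 0.051 in the shortest bin and -0.034 in the longest by length of the gene model. The cause of these differences was not tested. RPPH1, the RNA of ribonuclease P, picked with its values known, had 1.14 and 3.91 CPM with evodiamine, against 31.4 and 12.9 CPM in control.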
